A study of Caenorhabditis elegans with 54 samples.

Results

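The 9 genes described here encode proteins that anchor the contractile apparatus of the nematode body wall muscle to the cell membrane and to the basement membrane outside it: pat-2, pat-3, unc-52, unc-112, unc-97, pat-4, pat-6, deb-1 and atn-1. They were taken as a list of names, with no threshold on a measured value, by a choice made with earlier results of these data known. Their symbols were matched to WormBase gene identifiers. All 9 were listed in each of the 9 tables, which hold 20728 distinct genes in all. The data are RNA sequencing libraries of day 1 adult Caenorhabditis elegans kept at 20 °C. There are 9 experiments and 54 libraries, and every experiment pairs 3 libraries of RNA bound to ribosomes with 3 of whole-lysate total RNA. The measurement followed through the text is the log2 ratio of a gene in the fraction over its own total RNA, and it shows whether a transcript is more or less abundant on the captured ribosomes than in the whole worm.

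In 6 experiments the ribosomes were pulled down by immunoprecipitation (IP) of a FLAG-tagged ribosomal protein RPL-22, a procedure named SKI TRIP in the labels. The tag was expressed in muscle from the myo-3 promoter (strain WBM1339, wbmIs118), in intestine from the nep-17 promoter (WBM1470, wbmIs131), in neurons from the rab-3 promoter in a pair of strains (neurons A, MSD473, wbmls99, and neurons B, WBM1471, wbmIs133), in the soma from the eft-3 promoter (WBM1364, wbmIs119), and in all tissues from the endogenous gene (ubiquitous, MSD470, rpl-22(wbm58)). Each tagged tissue is thus defined by the activity of 1 promoter in 1 strain. The other 3 experiments are sucrose gradients without IP: polysomes of MSD470, a pool of 60S, 80S and polysome fractions of MSD470, and polysomes of wild-type Bristol N2, which carries no tag. Each gradient replicate took about 12000 worms, according to the labels, with cycloheximide at 1 mM and sucrose from 15 to 60%. The labels do not say that replicates came from separate cultures, so a p-value refers only to the spread among the libraries at hand, which may be technical.

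Body wall muscle cells of C. elegans hold their thin filaments at dense bodies, the counterpart of the vertebrate Z-disc and of a focal adhesion, and their thick filaments at M-lines. Both structures sit on integrin receptors that bind the basement membrane outside the cell and a chain of linker proteins inside it. Loss of several of these proteins paralyses the embryo and arrests its elongation, the Pat phenotype after which 4 of the genes are named. PAT-2 and PAT-3 are the alpha and beta chains of the integrin, UNC-52 is perlecan, a proteoglycan of the basement membrane, and UNC-112 is kindlin, which binds the integrin tail. PAT-4 (integrin-linked kinase), UNC-97 (PINCH) and PAT-6 (parvin, also called actopaxin) form a complex with one another, while DEB-1 (vinculin) and ATN-1 (alpha-actinin) are dense body proteins that lead from the integrin to actin.

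On ce11 (WBcel235, Ensembl release 115) pat-2 spans bases 8818899 to 8825266 of chromosome III, pat-3 bases 3908931 to 3914149 of III and pat-4 bases 89453 to 94809 of III. On chromosome IV lie pat-6 (261886 to 264232) and deb-1 (7085215 to 7094266), and on chromosome V lie atn-1 (12478411 to 12484449) and unc-112 (14691855 to 14696654). The gene unc-97 spans bases 5593133 to 5594965 of X, and unc-52 spans bases 14647321 to 14684456 of chromosome II. It is by far the longest of the 9, with 17 annotated transcripts whose coding parts run from 411 to 12225 bases, where deb-1 has 8 transcripts, atn-1 has 4 and each of the other 6 genes has 1. Protein-coding genes on the opposite strand overlap pat-2 (F54F2.9), unc-52 (hhat-1) and unc-112 (gasr-8). Whether the counting used strand is not given in the sources used here, so reads shared with these neighbours cannot be told apart.

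The deposited per-library values are normalized counts, scaled by the authors separately in each table. They sum to between 16.5 and 85.8 (median 34.8) in units of 1e6 per library. The depth in reads is unknown, since the values are not whole numbers and at most 27 genes share a value above 0 in any library. A pair of libraries stands apart in the number of listed genes at 0, with 7896 in neurons A IP replicate 3 and 6112 in intestine IP replicate 2, against 83 to 2820 in all others. The muscle label was borne out by its markers: all 14 body wall muscle markers were higher in the muscle IP than in total RNA, and their summed level was 133119 to 146774 CPM (normalized counts per 1e6 of the library's sum) in the IP libraries against 7918 to 8625 in total RNA. None of 8 pharyngeal muscle markers was higher there and 3 were lower. Of 6 gonad sheath and spermatheca markers 4 were higher (summed level 729 to 901 CPM against 210 to 355), and their part in the muscle results was not tested.

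In the muscle IP 8 of the 9 genes were higher than in total RNA and unc-52 was not. The background was 23.1% of 14681 genes called higher and 13.1% called lower (limma on log2(normalized count + 1), Benjamini-Hochberg adjusted p under 0.05 over all genes tested). For each of the 8 every IP library lay above every total RNA library. The median ratio of the 9 genes was 4.49 on the log2 scale, against -0.14 over all genes tested. The count was 8 whichever of the 6 libraries was left out.

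The integrin chains moved to different extents. The alpha chain gene pat-2 stood at 14632, 21974 and 24537 normalized counts in the muscle IP libraries and at 591, 576 and 618 in total RNA. This is the highest ratio of the 9, 5.06 (SE 0.23, limma adjusted p = 2.67e-08), rank 318 of 14681 genes. The beta chain gene pat-3 had 13694, 20254 and 20911 in the IP and 2008, 4314 and 3733 in total RNA. IP levels of the chains were close, but pat-3 was several times more abundant in total RNA, so that its ratio was 2.50 (SE 0.30, limma adjusted p = 4.43e-05, rank 1409). PAT-3 is the only beta integrin chain of the worm and pairs in other tissues with the alpha chain INA-1, whose gene had an uncalled ratio of 0.29 (SE 0.23) in the muscle IP.

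The kindlin gene unc-112 had 13744, 18308 and 18966 normalized counts in the muscle IP against 1079, 1143 and 1216 in total RNA, a ratio of 3.88 (SE 0.20). All 3 genes of the kinase, PINCH and parvin complex lay higher still and near one another. The PINCH gene unc-97 had 15558, 19673 and 19932 in the IP and 659.8, 648 and 698 in total RNA (4.77, SE 0.19). The parvin gene pat-6 had 15664, 22469 and 25254 in the IP and 1191, 798 and 819.6 in total RNA (4.49, SE 0.25). The kinase gene pat-4 had 5615, 12145 and 11568 in the IP and 439, 426 and 437 in total RNA (4.41, SE 0.28). Replicate 1 of the IP was the low library for pat-4, as it was for all 9 genes except unc-52. The largest adjusted p of these 4 genes was 2.64e-07 (limma).

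Both actin linkers were among the most abundant members in the muscle IP. The vinculin gene deb-1 rose from 1005, 1268 and 1324 normalized counts in total RNA to 24149.7, 37101 and 38842 in the IP (4.78, SE 0.23, limma adjusted p = 3.92e-08). The alpha-actinin gene atn-1 rose from 1883, 1734 and 1883 to 36775, 52102 and 50796 (4.65, SE 0.20, limma adjusted p = 2.59e-08). Neither gene had an IP library near its total RNA range.

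The perlecan gene unc-52 behaved differently. It had 6212, 5601 and 5597 normalized counts in the muscle IP and 7166, 5739 and 6267 in total RNA, and the groups overlapped. Its ratio was -0.13 (SE 0.19, limma adjusted p = 0.598), close to the median over all genes. In total RNA it was the most abundant member by normalized count, and in the IP only pat-4 came near it. Measured against pat-2 within the same library, which does not depend on library scaling, unc-52 was 5.20 log2 units lower in the IP than in total RNA, with no overlap between the groups. This pair joins the members with the highest and the lowest muscle ratio in the same libraries, so it describes the gap and does not test it.

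**Figure D1:**
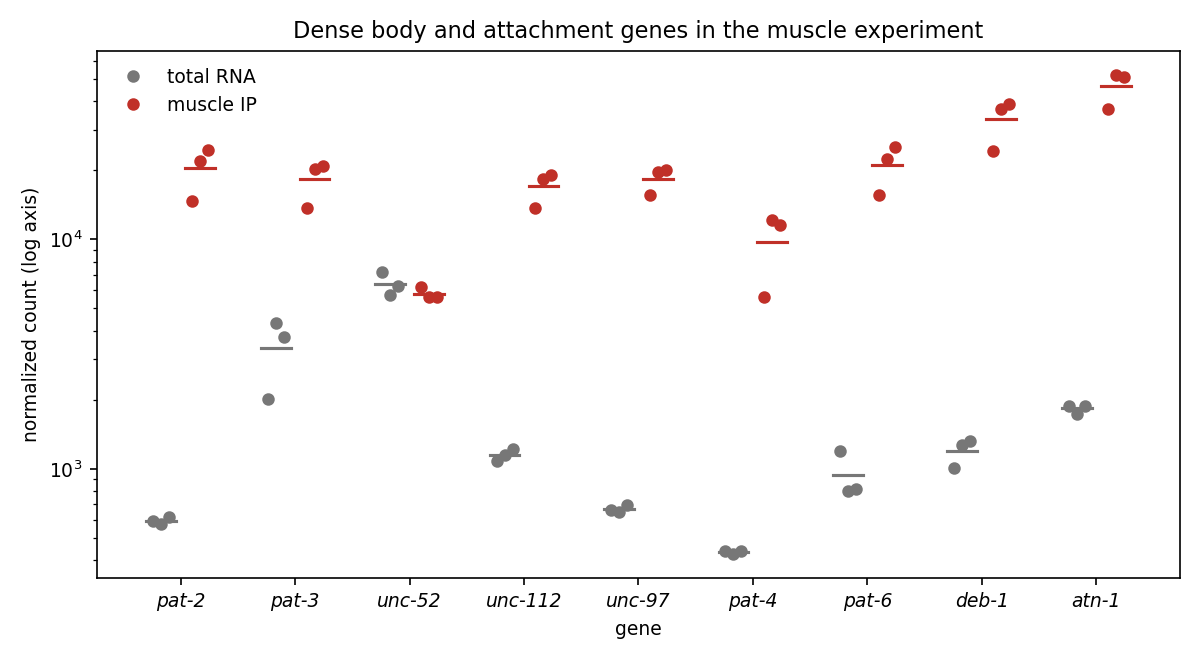
Normalized counts (log axis) of the 9 genes in the 3 total RNA (grey) and 3 muscle IP (red) libraries of the muscle experiment, with each point 1 library and each bar the mean. Grey and red points are separate for 8 genes and overlap for unc-52.

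The scaling matters for the size of these ratios. When each library was scaled to the same summed value, the median over all genes in muscle moved by -1.39 log2 units, and the share of all called genes that were called higher went from 63.8% to 13.5%. The same 8 genes were still called higher, from 1.10 for pat-3 to 3.67 for pat-2, and unc-52 was then called lower at -1.53. The median over all genes was also -1.53 on that scale, and 10759 of 14681 genes were called lower. The call of unc-52 thus does not set it apart from the typical gene. The corresponding shift of the median was -1.22 for the intestine IP, -0.46 for neurons A, -0.42 for neurons B, -0.38 for wild-type polysomes, -0.26 for ubiquitous polysomes, 0.25 for the ubiquitous IP and 0.10 for the soma IP.

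Within each muscle library the neighbours in the order of ratios were compared as the ratio of 1 gene to the next. Since the order comes from the same 6 libraries, this describes the steps and does not test them. The step from pat-2 to deb-1 was small but separate in all libraries (0.29 log2 units), as were those from unc-97 to atn-1 (0.12), unc-112 to pat-3 (1.38) and pat-3 to unc-52 (2.63). The step from pat-4 to unc-112 (0.53) was barely separate, with -1.29 both in the lowest IP and in the highest total RNA library, and was no longer so with a pseudocount of 5. The steps from deb-1 to unc-97, from atn-1 to pat-6 and from pat-6 to pat-4 overlapped between IP and total RNA, so the order within those pairs is not larger than the spread between libraries.

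Levels between genes were compared in CPM per kilobase of the longest annotated transcript. On this scale pat-6 stood at 212 ± 26.3 (SD, n = 3) in the muscle IP, followed by atn-1 at 186 ± 9.65 and unc-97 at 153 ± 2.95. The gene deb-1 followed at 116 ± 14.1, and unc-112, pat-3, pat-4 and pat-2 lay between 64.6 and 86.8. Of these, unc-112 (86.8 ± 4.02) and pat-2 (64.6 ± 9.16) did not overlap within 1 SD, while pat-3 (81.0 ± 7.81) overlapped with both and pat-4 (76.0 ± 20.0) with all. The level of unc-52 was 6.0 ± 1.27 on the same scale, although most of its transcripts are shorter than the one used for scaling, which makes this a low estimate. In total RNA of the same worms the order was another, with pat-3 first at 39.9 ± 15.1 and pat-2 last at 5.04 ± 0.51.

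The muscle ratios were next set against those of the other IP experiments by an interaction term over the 12 libraries of both tables. Against the intestine IP 8 genes had a higher ratio in muscle (11.5% of all genes did), against the soma IP 8 (45.2%), against the ubiquitous IP 8 (26%), against neurons B all 9 (32.4%) and against neurons A 4 (13.1%). The differences of the 8 genes other than unc-52 ran, among those called, from 3.01 for unc-112 to 6.64 for atn-1, both against neurons A. Under equal-sum scaling the unc-112 difference lost its call (2.10, limma adjusted p = 0.105), which left 3 called against neurons A. Against the soma and ubiquitous IPs the same 8 genes stayed called with smaller differences. The smallest were those of pat-3, which went from 3.33 to 1.84 (soma) and from 3.15 to 1.51 (ubiquitous). For unc-52 only the difference from neurons B was called (1.78, SE 0.30), and under equal-sum scaling that call was lost (0.80, limma adjusted p = 0.0759). On that scale unc-52 was instead called lower in muscle than in soma (-2.28, limma adjusted p = 0.000175) and than in the ubiquitous IP (-1.06, limma adjusted p = 0.0048). The median difference over all genes was then -0.38 from soma and -1.65 from the ubiquitous IP. Against the ubiquitous IP unc-52 thus lay above the median gene, and against soma below it. The neurons A comparison rose from 4 to 8 called genes without neurons A IP replicate 3, without its replicate 2, or with the replicate number as a block.

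The neuronal label held in both neuronal IPs, with 9 of 10 neuron markers higher in neurons A and 10 of 10 in neurons B. In neurons B 12 of 14 body wall muscle markers were lower, and the muscle markers' summed level was 2167 to 2806 CPM in the IP against 7896 to 10923 in total RNA. Of the 9 attachment genes 3 were called higher, 3 were called lower and 3 were not called, shares near the background of 38.7% higher and 32.6% lower over all genes. The intestine markers were also higher in this IP (7 of 10, summed level 27335 to 42273 against 17127 to 20777 CPM). Of 6 gonad sheath and spermatheca markers 3 were higher and 2 lower here (summed level 217 to 350 against 371 to 762 CPM). In neurons A 3 of these 6 were higher and 0 lower. The part of the intestine and gonad markers in the results was not tested.

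The 3 genes that rose in neurons B were pat-2, pat-6 and pat-4, the alpha integrin, parvin and kinase genes. For pat-2 the IP libraries held 1912, 1999 and 2627 normalized counts and total RNA 1184, 735 and 1058 (1.15, SE 0.25, limma adjusted p = 0.00227). For pat-6 they held 1873, 2245 and 2273 against 895, 1035 and 1048 (1.10, SE 0.21, limma adjusted p = 0.00089), and pat-4 had 691, 913 and 1100.2 against 301, 579 and 514 (0.98, SE 0.31, limma adjusted p = 0.0157). None of these groups overlapped. With equal-sum scaling pat-4 was no longer called (0.58, limma adjusted p = 0.108).

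Perlecan, alpha-actinin and the beta integrin chain fell in neurons B. For unc-52 the IP libraries held 1037, 941 and 1341 normalized counts against 4719, 3347 and 4472 in total RNA (-1.92, SE 0.24, limma adjusted p = 5.66e-05). The counts of atn-1 were 779, 947 and 626 against 2379, 2495 and 2329.7 (-1.63, SE 0.22), and those of pat-3 were 2329, 2046 and 1653 against 6853, 4992 and 4843 (-1.46, SE 0.24). The groups of each gene were separate. The ratios of unc-112 (0.18), unc-97 (0.27) and deb-1 (-0.29) did not pass the test, and deb-1 was called lower under equal-sum scaling (-0.70, limma adjusted p = 0.0426).

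In neurons A none of the 9 genes was called in either direction, where 15.3% of 14483 genes were called higher and 12% lower. The standard errors were 0.49 to 2.31 log2 units. Replicate 3 of the IP lists deb-1 and pat-4 at 0 and has 2.84 normalized counts of pat-3, while the other IP replicates had 283 and 510.0 for deb-1, 285 and 476 for pat-4, and 338 and 619 for pat-3. The same replicate number was highest for pat-2 in both fractions, with 8736 in the IP and 1996 in total RNA against 872 to 1641 and 327 to 484 in the others. Without that IP library the count of called genes was still 0, and the ratio of pat-4 turned from -1.43 to 1.41. Same-numbered IP and total RNA libraries deviated together in this experiment, and with the replicate number as a block pat-2 was called higher (1.77, limma adjusted p = 0.0085), and unc-52 (-3.0, limma adjusted p = 0.0076) and atn-1 (-1.99, limma adjusted p = 0.0191) were called lower. With the block 6146 of 14483 genes were called in either direction, against 3951 without it.

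In the intestine IP likewise none of the 9 genes was called, where 17.8% of 13629 genes were called higher and 9.61% lower. The lowest ratios were those of unc-97 (-1.58, SE 0.64), pat-3 (-1.47, SE 0.49) and deb-1 (-1.40, SE 0.67). For unc-97 the IP libraries held 161, 44.1 and 203 normalized counts and total RNA 317, 248 and 510.1, without overlap. The low IP value was replicate 2, the library with 6112 genes at 0. Same-numbered libraries deviated together here as well, and with the replicate number as a block pat-3 (limma adjusted p = 0.0024), deb-1 (limma adjusted p = 0.0075) and unc-97 (limma adjusted p = 0.0184) were called lower. With the block 6013 of 13629 genes were called in either direction, against 3737 without it. Equal-sum scaling gave 6 genes called lower, where 5641 of 13629 genes were called lower and the median over all genes was -1.65. It moved the share of higher calls over all genes from 64.9% to 21.1%. All 10 intestine markers were higher in this IP. Body wall muscle markers were lower in 7 of 14 cases, with a summed level of 1605 to 1894 CPM in the IP against 6447 to 9107 in total RNA.

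In the soma IP 3 genes were called higher and none lower, against backgrounds of 25.1% and 32.7% of 16031 genes. They were deb-1 (4914, 4200.1 and 3351 normalized counts in the IP against 2377, 2393 and 2234 in total RNA, ratio 0.81, SE 0.27, limma adjusted p = 0.0254), unc-97 (0.72, SE 0.28, adjusted p = 0.0441) and pat-6 (0.69, SE 0.27, adjusted p = 0.0479). The groups of these genes did not overlap, yet the count fell to between 0 and 1 when any 1 of the 6 libraries was left out. The perlecan gene unc-52 had 11325, 20328 and 9458 normalized counts here against 7756, 10790.1 and 6705 in total RNA, with a ratio of 0.65 (SE 0.33, limma adjusted p = 0.112) and overlapping groups. Under equal-sum scaling unc-52 was called higher (0.75, limma adjusted p = 0.0486), as it was in the authors' own test. In CPM per kilobase its level in this IP was 23.5 ± 7.72 (SD, n = 3), against 1.16 to 10.0 in the other 5 IPs, a comparison across separately normalized tables that was not tested. Epidermis markers were higher in 8 of 10 cases and body wall muscle markers in 7 of 14 in this IP. Germline markers were lower in 10 of 10, and what these markers contribute to the results was not tested.

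**Figure D2:**
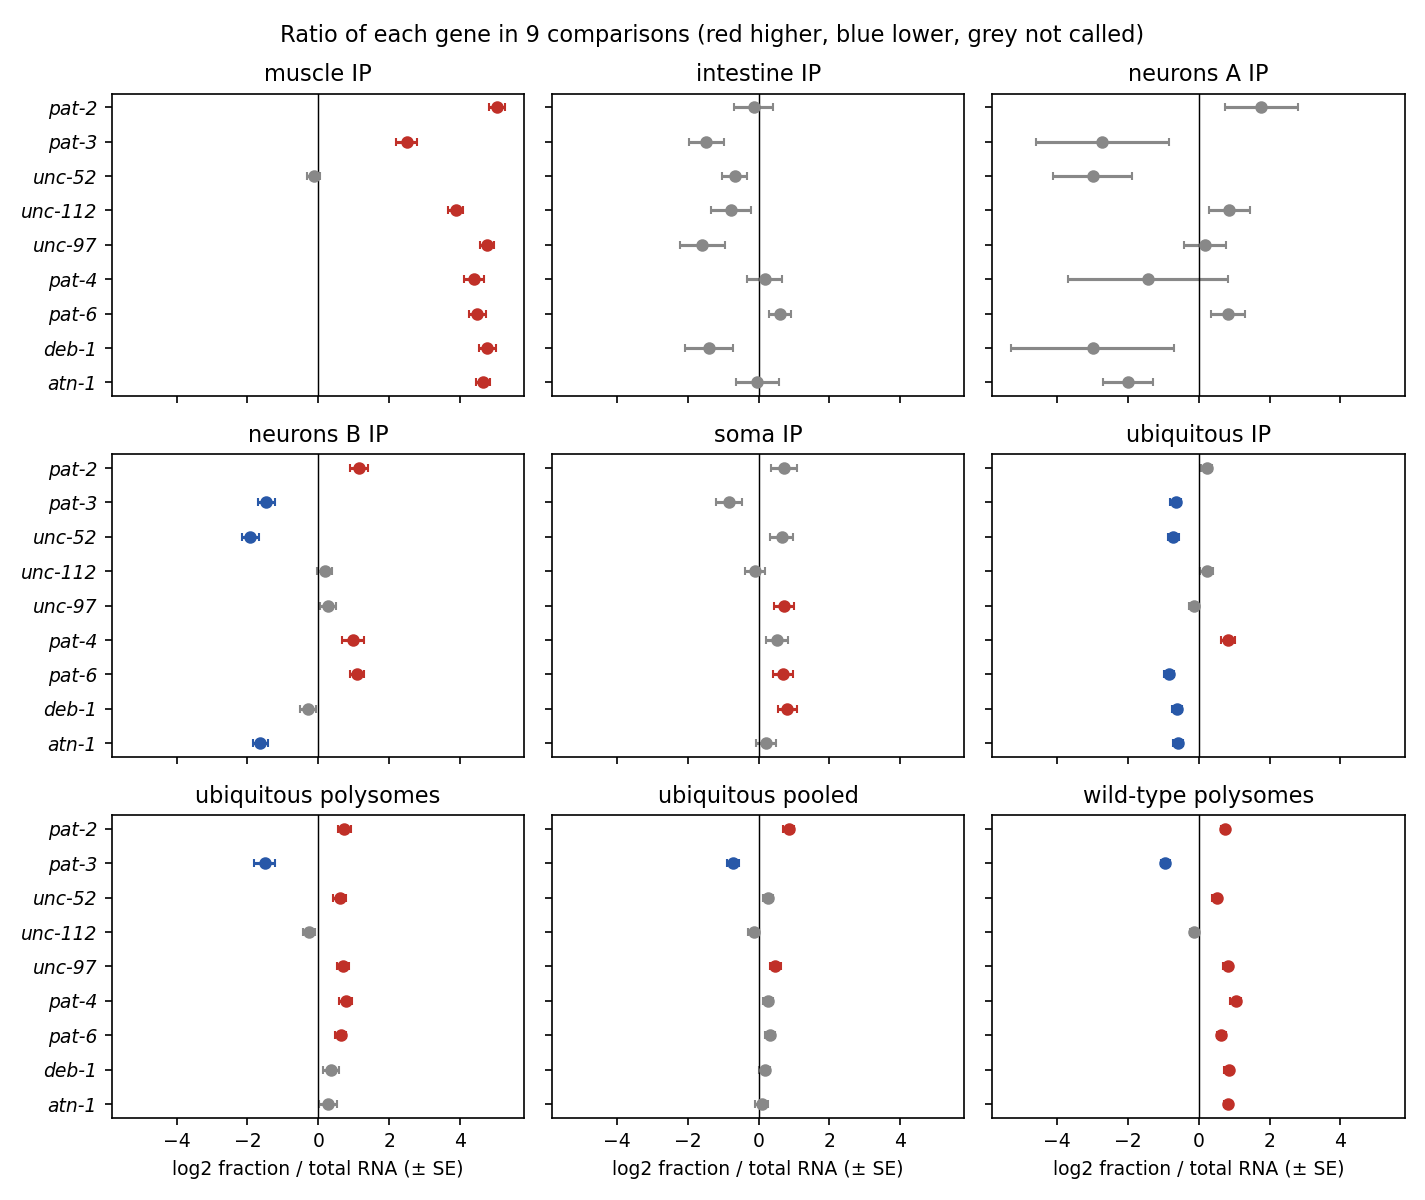
Log2 ratio of the fraction over total RNA (x axis, ± SE, 3 libraries a group) of the 9 genes in the 9 comparisons, with red for genes called higher, blue for genes called lower and grey for genes not called. In the muscle IP 8 genes lie between 2.50 and 5.06 and unc-52 lies at -0.13; pat-3 is left of 0 in all 8 other comparisons.

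In the ubiquitous IP, where every cell carries the tag, 5 genes were lower than in total RNA and 1 was higher, against backgrounds of 20.4% lower and 16.9% higher of 13853 genes. The parvin gene pat-6 had 506, 476 and 535 normalized counts in the IP and 846, 848 and 1016 in total RNA (-0.83, SE 0.14, limma adjusted p = 0.00166). The ratios of unc-52 (-0.72), pat-3 (-0.66), deb-1 (-0.62) and atn-1 (-0.58) were called lower too, with all IP libraries below all total RNA libraries. The kinase gene pat-4 was the one that rose, from 269, 329 and 295 to 477, 443 and 681 (0.82, SE 0.19, limma adjusted p = 0.00777). Under equal-sum scaling the median over all genes moved by 0.25 and the share of higher calls from 45.3% to 68.4%. On that scale pat-4 was still called higher (1.07) and none of the 9 genes was called lower.

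In polysomes of wild-type worms, with no tag and no IP, 7 genes were higher than in total RNA, pat-3 was lower and unc-112 was not called, against backgrounds of 33.6% higher and 33.9% lower of 14705 genes. The largest ratio was that of pat-4, with 957, 1094 and 712 normalized counts in polysomes and 402, 452 and 471 in total RNA (1.04, SE 0.16, limma adjusted p = 3.33e-05). The genes deb-1 (0.84), atn-1 (0.84), unc-97 (0.81), pat-2 (0.74), pat-6 (0.64) and unc-52 (0.50) followed, each with all polysome libraries above all total RNA libraries. With equal-sum scaling 4 of these were called higher (pat-4, deb-1, atn-1 and unc-97), unc-112 joined pat-3 among those called lower, and the share of higher calls over all genes moved from 49.8% to 31.8%. Over all genes 3009 were then called higher and 6464 lower. Body wall muscle markers were higher in 13 of 14 cases in these polysomes and germline markers lower in 8 of 10, and their part in these ratios was not tested.

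Polysomes of the tagged ubiquitous strain gave 5 genes called higher and 1 lower, against backgrounds of 28.4% and 30.3% of 14651 genes. The higher ones were pat-4 (0.77), pat-2 (0.73), unc-97 (0.71), pat-6 (0.63) and unc-52 (0.60), and the lower one was pat-3 (-1.52). Under equal-sum scaling the share of higher calls went from 48.4% to 37.5%, and of these genes pat-4 and pat-3 were still called. Body wall muscle markers were higher in 7 of 14 cases in this fraction, intestine markers higher in 9 of 10 and germline markers lower in 9 of 10, and their part was not tested. In the pool of 60S, 80S and polysome fractions 2 genes were higher, pat-2 (0.85, SE 0.16) and unc-97 (0.48, SE 0.15), and pat-3 was lower (-0.73, SE 0.17), against 20.6% and 23.1% of 14824 genes. Under equal-sum scaling unc-97 was no longer called (0.48, limma adjusted p = 0.0586). The count of higher genes there was also 1 without pooled replicate 2 or without total RNA replicate 3. In the pool 6 of 14 body wall muscle and 6 of 10 intestine markers were higher and 6 of 10 germline markers lower, and their part was not tested. No gene differed in its ratio between tagged and wild-type polysomes by the interaction term: 0 of 14372 genes and none of the 9 were called (0%), 681 genes had an unadjusted p under 0.05, and none of the 9 was among those 681. The lowest adjusted p among the 9 was 0.740 (limma).

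The beta integrin gene stood out among the 9 in the gradients. In wild-type worms pat-3 had 2632, 2824 and 3051 normalized counts in polysomes and 4748, 5653 and 5986 in total RNA (-0.94, SE 0.12, limma adjusted p = 8.36e-06). In ubiquitous polysomes it had 1167, 2582 and 2399.6 against 5211, 5953 and 5471, and in the pool 4362, 4327 and 2869 against 5605, 6371 and 6885. It was called lower in all 3 gradient experiments with either scaling, and in each the groups were separate. Its partner pat-2 had 1598, 1562 and 1649.6 in wild-type polysomes and 1064, 944 and 887 in total RNA, and it was called higher in all 3 gradient experiments with the authors' scaling.

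The pair was therefore also expressed as the log2 ratio of pat-2 to pat-3 within each library, a measure chosen after their values were seen. In total RNA the mean of this ratio was between -2.89 and -1.68 in 8 of the 9 experiments, and it was higher in the fraction than in the total RNA of all 9. In wild-type worms it rose from -2.50 ± 0.31 (SD, n = 3) in total RNA to -0.82 ± 0.09 in polysomes. It rose from -2.62 ± 0.16 to -0.37 ± 0.88 in ubiquitous polysomes and from -2.89 ± 0.39 to -1.31 ± 0.20 in the pool. In the muscle IP it was 0.15 ± 0.07 against -2.42 ± 0.59 in total RNA, in neurons B 0.12 ± 0.49 against -2.50 ± 0.29, in the ubiquitous IP -1.09 ± 0.10 against -1.97 ± 0.25 and in the soma IP -0.49 ± 0.58 against -2.04 ± 1.3. The fraction and total RNA libraries were separate in these 7 experiments and overlapped in the intestine and neurons A experiments.

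**Figure D3:**
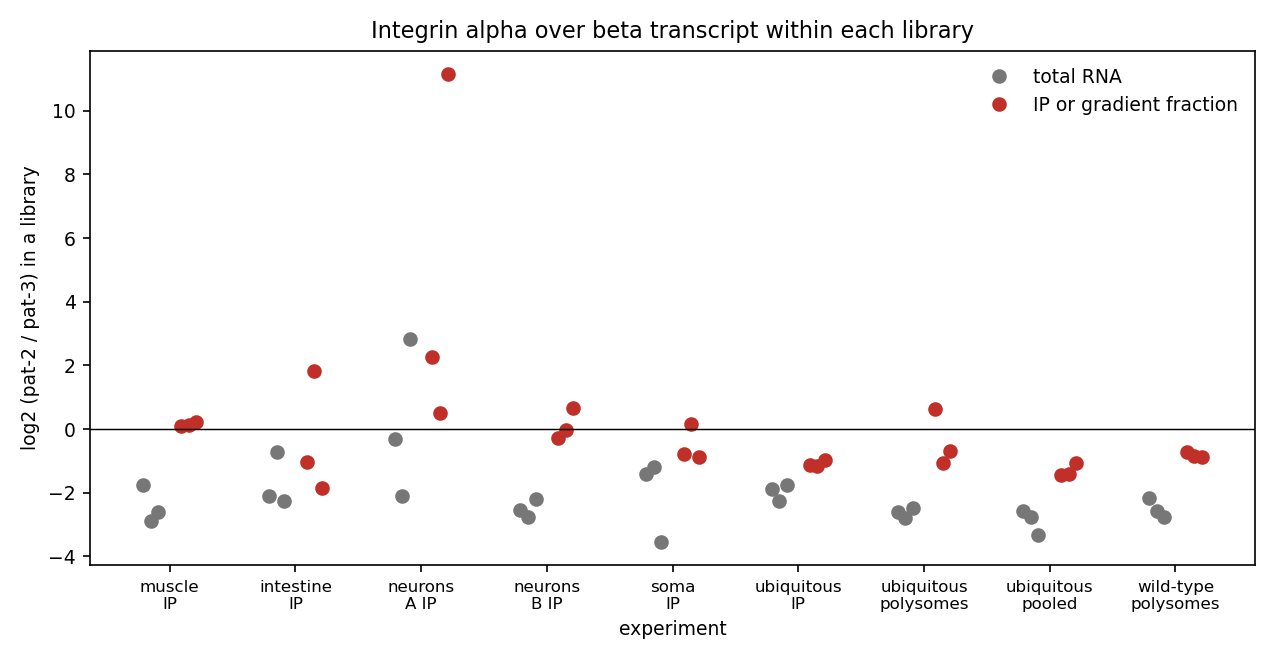
Log2 ratio of pat-2 to pat-3 normalized counts within each library (y axis) for the 9 experiments, with total RNA in grey and the IP or gradient fraction in red, 1 point per library. Red points lie above grey points without overlap in 7 experiments, and the highest point, 11.2, is neurons A IP replicate 3, where pat-3 had 2.84 normalized counts.

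The level of pat-3 in total RNA itself varied between experiments. In CPM per kilobase it was 62.1 ± 2.50, 59.9 ± 1.69 and 63.4 ± 3.52 (SD, n = 3) in the total RNA of the ubiquitous polysome, pooled and wild-type gradients, and 18.5 ± 6.24 in the total RNA of the ubiquitous IP, from the same strain MSD470 as the first 2 of these. In the same 4 groups unc-97 stayed at 16.4 ± 2.81, 15.2 ± 2.94, 17.4 ± 2.99 and 15.8 ± 5.01. The variation was not particular to pat-3. In mean normalized counts, total RNA of ubiquitous polysomes and of the ubiquitous IP held 903 and 393 of pat-2. The means of unc-112 were 1473 and 618, while those of pat-6 went the other way, 556 and 903. These levels cross tables normalized separately and were not tested. In a level in whole-worm RNA, fewer cells of a type and less RNA per cell cannot be told apart.

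Ubiquitous IP and ubiquitous polysomes come from 1 strain, capture ribosomes in different ways and were each set against their own total RNA libraries. By the interaction term 5 of the 9 genes had a lower ratio in the IP than in polysomes (22.5% of 13662 genes did): pat-6 (-0.83 against 0.63), unc-52 (-0.72 against 0.60), deb-1 (-0.62 against 0.37), atn-1 (-0.58 against 0.28) and unc-97 (-0.13 against 0.71). The largest difference was that of pat-6, -1.46 (SE 0.20, limma adjusted p = 0.0002). Under equal-sum scaling it was the only 1 of the 5 still called (-0.96, limma adjusted p = 0.0099). The mean normalized counts of pat-6 were 506 in the IP and 864 in polysomes, against 903 and 556 in their total RNA. Both the fractions and the total RNA thus differed, across tables normalized separately, and the part of each in the difference was not tested. The ratio of pat-4 was nearly the same in both (0.82 and 0.77; difference 0.05, SE 0.28).

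Over the 9 comparisons unc-52 followed the other 8 genes least closely, and its widest departure from the members' mean was in the muscle IP. Its 9 ratios had a Pearson correlation of 0.31 with the mean of the other 8 genes, against 0.81 to 0.94 for each of the others; this describes 9 comparisons, among which the muscle IP carries most of the spread. The ratio of unc-52 to atn-1 within a library, also chosen after values were seen, fell from 1.80 ± 0.11 (SD, n = 3) in muscle total RNA to -2.99 ± 0.37 in the muscle IP. Outside muscle it differed by at most 1.01 log2 units between fraction and total RNA and overlapped in all but the wild-type polysomes (1.24 ± 0.07 against 1.57 ± 0.05).

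Genes of neighbouring structures gave the context for the muscle IP, where 23.1% of 14681 genes were called higher and 13.1% lower. Of 18 other dense body and M-line adhesion genes 16 were higher and none lower, with a median of 4.25, beside -0.14 for all genes. The most abundant of them were dim-1 (5.63), an immunoglobulin-domain protein near the dense body, zyx-1 (4.58), the zyxin gene, and alp-1 (6.20), the ALP/Enigma gene, which also had the highest ratio. The LIM-domain gene lim-8 had the lowest (-0.16, limma adjusted p = 0.661). All 8 dystrophin complex genes were higher (median 4.09), from ctn-1 (2.31) to the sarcoglycan gene sgcb-1 (5.62), with the dystrophin gene dys-1 at 2.58 and the syntrophin gene stn-1 at 3.82.

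The extracellular side was mixed. Of 18 genes of the basement membrane and its receptors 13 were higher and none lower (median 2.31). The osteonectin gene ost-1 (5.92) and the type IV collagen genes emb-9 (4.76) and let-2 (4.01) were the most abundant, and the lowest ratio was that of the laminin alpha gene lam-3 (-0.56, limma adjusted p = 0.166). The perlecan gene unc-52, whose product lies in the same matrix, thus had a ratio nearer to that of lam-3 than to those of the collagens. Of 8 genes tested for the epidermal hemidesmosome, the structure that carries the load from the basement membrane to the cuticle, 2 were higher and none lower (median 0.20). The count called higher is near the background of 23.1% over all genes. The plakin gene vab-10 had a ratio of 1.26 and the intermediate filament gene ifa-3 one of 1.59, while let-805, the myotactin gene, at 0.61 and the intermediate filament gene ifb-1 at -0.58 were not called.

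**Figure D4:**
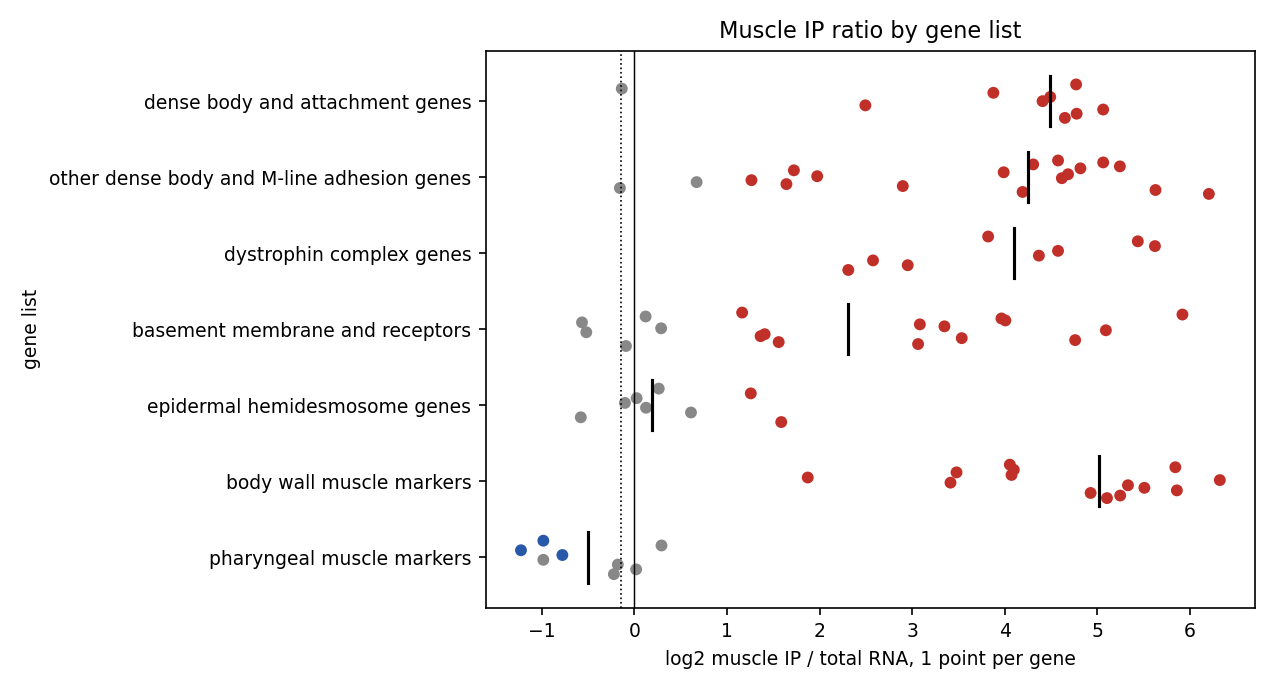
Log2 ratio of muscle IP over total RNA (x axis) for the genes of 7 lists, 1 point per gene, red for called higher, blue for called lower and grey for not called; the black bar is the list's median and the dotted line the median over all genes, -0.14. Dense body, dystrophin complex and body wall muscle lists lie mostly above 2, and the epidermal hemidesmosome and pharyngeal muscle lists lie near 0.

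The pattern of the 9 genes over the 9 comparisons was also matched against every gene with a symbol tested in all tables (11531 genes). The 5 genes whose ratios correlated best with the mean of the 9 were dur-1 (Pearson r = 0.994), unc-89 (0.989), F46H5.3 (0.989), sgn-1 (0.987) and act-4 (0.986), each over 9 comparisons, which share no libraries. UNC-89 is obscurin, a giant M-line protein, sgn-1 encodes a sarcoglycan and act-4 an actin. Their ratios in the muscle IP were between 4.82 and 6.16, and in the other 8 comparisons between -1.17 and 1.34. The members' mean was 3.82 in the muscle IP and between -0.95 and 0.48 in the other 8. The muscle IP therefore carries most of the spread behind these correlations.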

How the data were processed

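Fractions and their own total RNA were compared in 9 experiments with 3 libraries a group. The submitters' processing notes name build ce11, R 4.0.4, the read quantifier kallisto 0.46.1 and the test package DESeq2 1.30.1, without saying what each was used for. The authors deposited normalized counts per gene and library (signal), a log2 fold change with its standard error (log2), a Wald statistic (score), p-values and adjusted p-values, and -log10 of the adjusted p. The description of the series and the sample labels give different strains for the intestine, and those of the samples were taken. Symbols and positions came from Ensembl release 115, in which 19405 of 20728 identifiers have a symbol.

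The main test was limma 3.58.1 (R 4.3.3) with a mean-variance trend on log2(normalized count + 1), over genes whose mean reached at least 10 in the 6 libraries, with Benjamini-Hochberg adjustment over all genes tested and a threshold of 0.05. It was checked on simulated data. A log2 ratio on this scale understates the change of low genes. Differences between experiments used an interaction term over 12 libraries. No filter removed any of the 9 genes. The members and gene lists were chosen with earlier results of these data known. Named genes were all 9 members, in each related list the 3 most abundant and those with the highest and lowest muscle ratio, and the 5 genes whose ratios correlated best with the members' mean.

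Alternatives were pseudocounts of 0.5 and 5, no filter, no trend, equal-sum scaling, the replicate number as a block, each library left out, and the authors' own test. Same-numbered libraries, whose numbers come from the labels, deviated together in the intestine (lowest correlation of deviations from the group means 0.304), neurons A (0.313) and ubiquitous IP (0.187) experiments, where the block is given beside the results it changes. No sequences are shown. Depth in reads is unknown, so no counting interval is given, and the number of libraries limits the precision.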

Additional observations from a re-analysis of the deposited data

Results flagged for a closer look

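These results were singled out because the ratio of a gene in the fraction over its total RNA (log2) differed between 2 experiments by the interaction term (limma, Benjamini-Hochberg adjusted p under 0.05 over all genes tested). The first group sets the muscle IP against each other IP, named in brackets, and gives the ratio in muscle minus the ratio there. The alpha integrin gene pat-2 was 5.20 (intestine), 3.91 (neurons B), 4.34 (soma) and 4.84 (ubiquitous) higher. The beta integrin gene pat-3 differed by 3.97 (intestine), 3.96 (neurons B), 3.33 (soma) and 3.15 (ubiquitous). The perlecan gene unc-52 lay 1.78 (neurons B) higher. The kindlin gene unc-112 was 4.65 (intestine), 3.01 (neurons A), 3.69 (neurons B), 3.98 (soma) and 3.65 (ubiquitous) higher. The PINCH gene unc-97 differed by 6.36 (intestine), 4.6 (neurons A), 4.50 (neurons B), 4.05 (soma) and 4.90 (ubiquitous). The kinase gene pat-4 lay 4.23 (intestine), 3.42 (neurons B), 3.88 (soma) and 3.59 (ubiquitous) higher. The parvin gene pat-6 was 3.88 (intestine), 3.67 (neurons A), 3.39 (neurons B), 3.80 (soma) and 5.32 (ubiquitous) higher. The vinculin gene deb-1 differed by 6.18 (intestine), 5.07 (neurons B), 3.96 (soma) and 5.39 (ubiquitous). The alpha-actinin gene atn-1 lay 4.68 (intestine), 6.64 (neurons A), 6.28 (neurons B), 4.43 (soma) and 5.23 (ubiquitous) higher. Under equal-sum scaling the calls of unc-52 (neurons B) and unc-112 (neurons A) were lost. The listed differences from soma and the ubiquitous IP were smaller on that scale, down to 1.84 and 1.51 for pat-3.

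The second group sets the ubiquitous IP against polysomes of the same strain, and gives the ratio in the IP minus that in polysomes. The differences were -1.32 for unc-52, -0.84 for unc-97, -1.46 for pat-6, -0.99 for deb-1 and -0.87 for atn-1. Under equal-sum scaling only pat-6 of these 5 was still called.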

How the results depend on the processing

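The muscle IP count of 8 genes called higher did not move by more than 1.5 times under any alternative run, while the soma count was 0 to 1 with any library left out. Of 1971 values for single genes under the alternatives, 25 changed sign, 56 lost a call and 57 gained one. Equal-sum scaling had the widest effect: counts called lower became 1 in muscle, 6 in the intestine, 0 in the ubiquitous IP and 2 in wild-type polysomes, and counts called higher became 1 in ubiquitous polysomes, 1 in the pool and 4 in wild-type polysomes. Over all genes it called lower 10759 of 14681 in muscle, 5641 of 13629 in the intestine, 1030 of 13853 in the ubiquitous IP and 6464 of 14705 in wild-type polysomes. It called higher 2966 of 14651, 2774 of 14824 and 3009 of 14705 in those 3 gradients. For the differences it gave 1 gene lower in muscle than in soma, 1 lower than in the ubiquitous IP (unc-52, -1.06, where the median over all genes was -1.65) and 1 lower in the ubiquitous IP than in polysomes. It also turned the ratio of pat-4 (-1.01) and pat-6 (-0.58) in the intestine, unc-97 in neurons A (-0.30), unc-112 (-0.22) and unc-97 (-0.13) in neurons B, unc-112 in soma (0.0035) and unc-97 in the ubiquitous IP (0.12). The cause was not tested.

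With the replicate number as a block, 3 genes were called lower in the intestine, 1 higher and 2 lower in neurons A, and 8 rather than 4 had a higher ratio in muscle than in neurons A. Over all genes the block called 6013 of 13629 in the intestine and 6146 of 14483 in neurons A, in either direction. The block changed no call in the ubiquitous IP. In soma, where the samples share only a number as in the other experiments, the block took the genes called higher from 3 to 2, without pat-6 (limma adjusted p = 0.0557). It gave 1 gene called lower there and 1 lower in muscle than in soma, and 1 gene was higher in the ubiquitous IP than in polysomes. Every soma IP library correlated best with the total RNA of its own number, a hint from the data and not from the design. The same held in neurons B, where these correlations were only 0.022 to 0.065. The authors' deposited table called 3 genes lower in the intestine, 1 higher and 3 lower in neurons A, and 5 higher and 1 lower in soma, and it put atn-1 at 0.0058 in the intestine. Without the trend 1 gene was called higher in soma and 1 in the pool.

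With 1 library left out, counts ranged from 0 to 1 (lower, intestine), 0 to 1 (higher, soma), 0 to 1 (lower, soma), 1 to 3 (higher, pool), 4 to 8 (muscle above neurons A), 0 to 1 (muscle below soma) and 0 to 1 (ubiquitous IP above polysomes). Uncalled ratios that changed sign ranged, in the intestine, from -0.74 to 0.33 (pat-2), -0.14 to 0.58 (pat-4) and -0.59 to 0.65 (atn-1), in neurons A from -0.22 to 0.46 (unc-97) and -3.04 to 1.41 (pat-4), in the pool from -0.043 to 0.28 (atn-1), and for pat-4 in the ubiquitous IP against polysomes from -0.14 to 0.19. The spread in neurons A and the intestine limits what can be detected there.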
